A study of Homo sapiens with 14 samples.

Results

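The genes described here are 33 protein-coding genes of the lysosome and of autophagy, set in order of role: 6 for the lysosomal membrane and its ion transport, 3 for the proton pump, 10 cathepsins, 6 for glycoside and sphingolipid breakdown and 8 for autophagy. They were examined in ChIP-seq (sequencing of chromatin pulled down with an antibody, here against GATA3) of the cell line MDA-MB-231, which derives from a triple-negative breast cancer. A member's regions were the merged ChIP-seq peaks that lay within 50 kb of its gene span on hg38, and 235 of the 78999 regions of the series met that rule. The 33 genes are part of 20033 protein-coding genes in the annotation. The 6 groups had 2 libraries each, with GATA3 as wildtype (WT) or with the point mutation p.A442M or p.G444E, and each of these also with FLAG fused to the C-terminus (WT-FLAG, A442M-FLAG, G444E-FLAG). According to the design text the tag makes the protein more stable in every genotype. All cells were untreated and harvested on day 3, and an antibody against GATA3 was used throughout. The labels give no promoter for the introduced genes, do not say whether a line is 1 clone or a pool or what GATA3 the host cells still make, and do not tell whether replicates were separate cultures, so p-values measure the spread between these libraries, which may be technical. Cells with an empty vector (2 samples) were left out and are not analysed here, and no region could be set against a background list. Peak lists carry no expression, so the cell type could not be checked against its markers, and none of the values below is an expression level.

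Lysosomes are acidic organelles in which hydrolases break down proteins, lipids and glycans. A proton pump keeps them acidic, membrane glycoproteins and channels bound and connect them, and autophagy delivers cytoplasmic cargo to them in double-membraned vesicles. Many genes of this system carry the palindromic E-box TCACGTGA near their starts, which is read by the TFEB and TFE3 family, whereas GATA3, a zinc-finger factor of luminal breast epithelium, reads a short GATA core.

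Peak lists held 25248 to 51694 peaks, and the sequencing depth behind them is unknown. Replicate 1 had the longer list in every group. Peaks outside the main chromosomes numbered 57 to 110 in the untagged WT and untagged A442M libraries and 16 to 25 in the other 8. Groups on either side of that divide (G444E against WT without the tag, WT-FLAG against WT, A442M-FLAG against A442M) differ in it as well as in genotype or tag, and the contributions cannot be told apart. The pairs A442M and WT, A442M-FLAG and WT-FLAG, G444E-FLAG and WT-FLAG, and G444E-FLAG and G444E lie on 1 side of it. Tests over all libraries, of the tag or of genotype, take in groups from both sides.

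GATA3 peaks lay near 30 of these genes, a share close to that of all genes, with more regions per length of window. Of the 33 members 30 had a region within 50 kb (90.9%), against 88.4% of all genes, and 16 (48.5%) had a region called in all 12 libraries, against 40.6% of all genes. All 12 libraries called 31 of the 235 regions (13.2%, against 13.8% of all regions), and 47 (20%) in 1 library only, against 23.5%. The median region was called in 4 libraries, both for the members and for all regions. The members had 4.83 regions per 100 kb of window and all genes 3.52. Of the 235 regions 95 overlapped a member's gene span, 29 lay within 10 kb outside it and 111 at 10 to 50 kb, and for 135 the member was the nearest gene. The remainder lay closer to another protein-coding gene, so nearness to a member does not assign a region to it.

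PSAP, which encodes the precursor of the saposins that help hydrolases act on sphingolipids, had the most shared regions, 6 of its 16. It had 9 and 6 regions in the WT libraries, 10 and 7 in A442M, 10 and 9 in G444E, 13 and 11 in WT-FLAG, 13 and 10 in A442M-FLAG and 12 and 9 in G444E-FLAG. The FLAG libraries held more regions than the same-number untagged libraries in 5 of 6 pairs and as many in the other, while the ranges of both tag states overlapped. ATG7, the E1-like enzyme of autophagosome formation, followed with 5 of 29. Its libraries called 11 and 8 regions in WT, 15 and 11 in A442M, 12 and 11 in G444E, 24 and 15 in WT-FLAG, 21 and 16 in A442M-FLAG and 17 and 13 in G444E-FLAG. WT replicate 2 was the lowest and WT-FLAG replicate 1 was the highest. The gene spans 304 kb, so its window is longer than most.

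LAMP2, a major glycoprotein of the lysosomal membrane needed for autophagosome fusion, had 3 shared regions of 7 and called 4 and 3 regions in WT, 5 and 5 in A442M, 6 and 4 in G444E, 5 and 6 in WT-FLAG, 5 and 5 in A442M-FLAG and 5 and 5 in G444E-FLAG. Every library thus called between 3 and 6. NPC1, the membrane exporter of lysosomal cholesterol, had 2 shared regions of 18 and called 4 and 3 in WT, 7 and 5 in A442M, 4 and 6 in G444E, 11 and 7 in WT-FLAG, 13 and 9 in A442M-FLAG and 8 and 9 in G444E-FLAG. The 6 FLAG libraries lay between 7 and 13 and the untagged ones between 3 and 7. UVRAG, a Beclin 1 partner in autophagosome and endosome maturation, had 2 shared regions of 21 and called 2 and 3 in WT, 5 and 5 in A442M, 6 and 4 in G444E, 11 and 6 in WT-FLAG, 16 and 11 in A442M-FLAG and 7 and 5 in G444E-FLAG. A442M-FLAG replicate 1 stood highest.

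ATG5, which is conjugated to ATG12 to build the complex that lipidates LC3, had 2 shared regions of 15 and called 5 and 5 in WT, 9 and 8 in A442M, 6 and 5 in G444E, 10 and 7 in WT-FLAG, 8 and 6 in A442M-FLAG and 8 and 7 in G444E-FLAG. Both A442M libraries lay above both WT libraries here, and both A442M-FLAG libraries did not lie above WT-FLAG. How many of all genes show this order was not counted, and the A442M lists held 1.40 times as many peaks as the WT lists. With every list cut to the same length, ATG5 had 5 and 5 regions in WT and 4 and 5 in A442M. SQSTM1, the p62 cargo receptor, had 2 shared regions of 7 and called between 3 and 6 in each library. CTSK, a cysteine protease best known from bone resorption, had 2 of 6 and called between 2 and 5. CTSS, the neighbouring cathepsin of antigen processing, had 1 of 5, and 4 regions lay near both of these genes. LAMP1, MCOLN1, ATP6V0D1, CTSC, CTSD, CTSL and NEU1 had 1 shared region each.

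**Figure D1:**
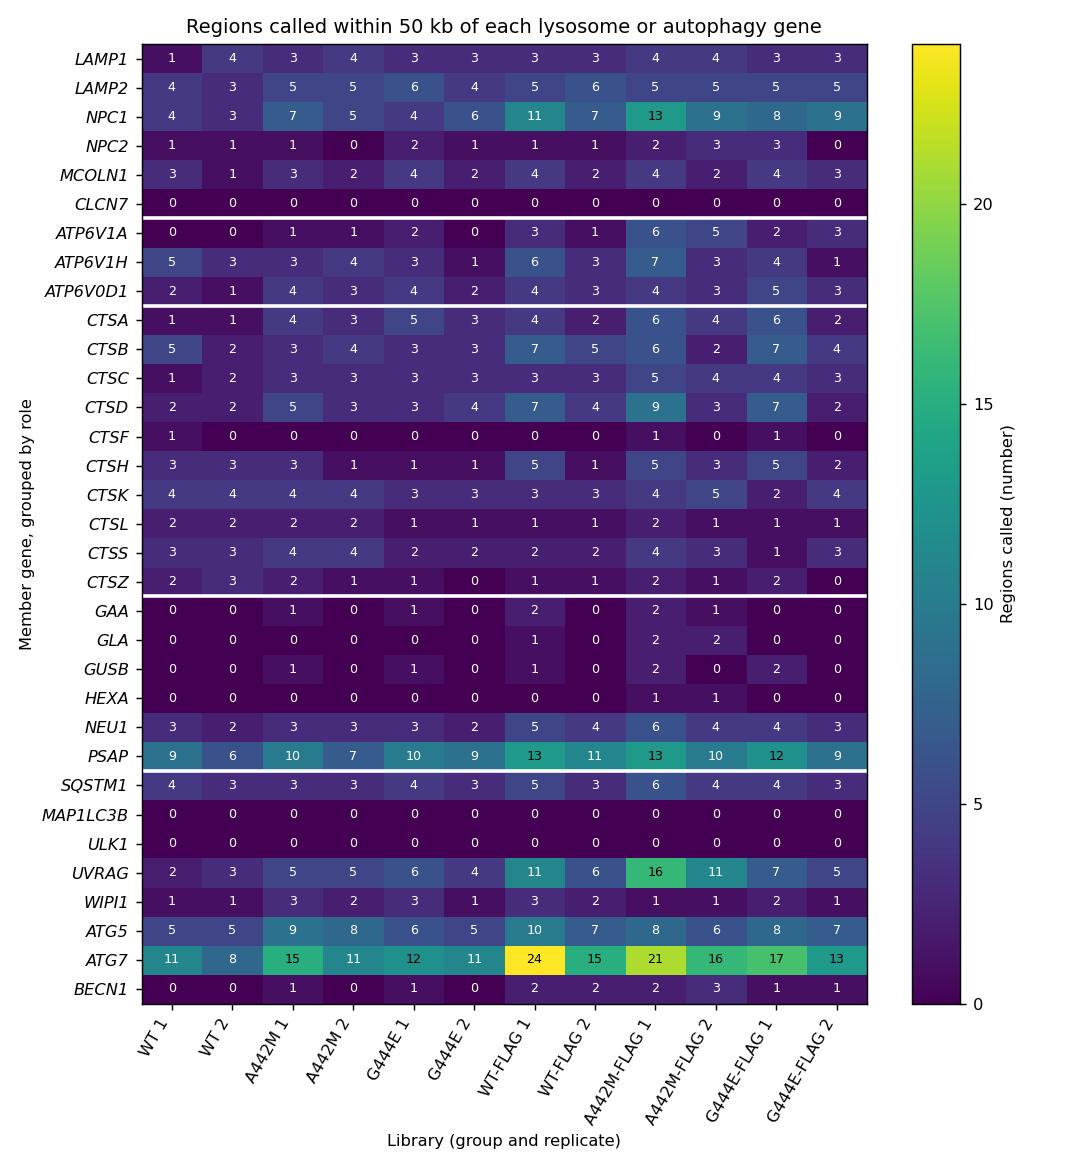
Each cell gives the number of regions called within 50 kb of a member gene (rows, grouped by role between white lines) in each of the 12 libraries (columns). ATG7 had the most, with 8 to 24 per library, and the rows of CLCN7, MAP1LC3B and ULK1 are 0 throughout.

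The other 17 members had no region common to all libraries. CLCN7, the chloride-proton exchanger of lysosomes, MAP1LC3B, which encodes the autophagosome marker LC3B, and ULK1, the kinase that starts autophagy, had no region in any library. Depth being unknown, this says that no peak was listed within 50 kb. Among the glycosidases, HEXA, which takes part in ganglioside breakdown, had 1 region, called only in both A442M-FLAG libraries. GLA, alpha-galactosidase A, had 2 regions, with 2 calls in each A442M-FLAG library, 1 in WT-FLAG replicate 1 and none in the other 9 libraries. GAA, the acid alpha-glucosidase, had 1 region in A442M replicate 1, 1 in G444E replicate 1, 2 in WT-FLAG replicate 1, 2 and 1 in A442M-FLAG, and none elsewhere. GUSB, beta-glucuronidase, had 1 region each in replicate 1 of A442M, G444E and WT-FLAG, 2 in replicate 1 of A442M-FLAG and of G444E-FLAG, and none in any replicate 2. These 4 genes were without a call in both untagged WT libraries, and most of their calls were in replicate 1, which has the longer lists. The matching number over all genes was not counted. Untagged WT replicate 1 had a call near 24 members and replicate 2 near 23. BECN1 and ATP6V1A, described next, lacked a call in both as well, so this absence does not set the 4 genes apart.

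BECN1, the core of the autophagy lipid kinase complex, had 4 regions and no call in WT, 1 and 0 in A442M, 1 and 0 in G444E, 2 and 2 in WT-FLAG, 2 and 3 in A442M-FLAG and 1 and 1 in G444E-FLAG. ATP6V1A, the catalytic subunit of the proton pump, had 7 regions and no call in WT, 1 and 1 in A442M, 2 and 0 in G444E, 3 and 1 in WT-FLAG, 6 and 5 in A442M-FLAG and 2 and 3 in G444E-FLAG. Both genes lacked a call in untagged WT and had one in every FLAG library. How many of all genes do so was not counted, and 76.7% of all genes had a higher mean with FLAG. With every list cut to the same length, BECN1 kept this pattern. ATP6V1A then had no region in WT-FLAG replicate 2 or in either A442M-FLAG library. ATP6V1H, the regulatory H subunit, had 5 and 3 calls in WT, 3 and 4 in A442M, 3 and 1 in G444E, 6 and 3 in WT-FLAG, 7 and 3 in A442M-FLAG and 4 and 1 in G444E-FLAG, which did not separate the groups. NPC2, the soluble partner of NPC1, had 0 to 3 calls in each library, WIPI1, a phosphoinositide-binding protein of early autophagosomes, had 1 to 3, CTSZ had 0 to 3 and CTSF had 3 regions with each called in 1 library only.

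CTSA, the protective protein of the NEU1 complex, had 1 and 1 calls in WT, 4 and 3 in A442M, 5 and 3 in G444E, 4 and 2 in WT-FLAG, 6 and 4 in A442M-FLAG and 6 and 2 in G444E-FLAG. Both WT libraries were the lowest of the 12, but untagged WT also had the shortest lists on average. How many of all genes show this order was not counted. With every list cut to the same length, G444E-FLAG replicate 2 had 1 region at CTSA, as both WT libraries did. CTSB, a broad cysteine protease, had 2 to 7 calls, and CTSH, an aminopeptidase, had 1 to 5, both with wide overlap between groups.

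Within 50 kb of the members each list held 76 and 63 regions in WT, 105 and 85 in A442M, 95 and 72 in G444E, 145 and 96 in WT-FLAG, 166 and 116 in A442M-FLAG and 126 and 87 in G444E-FLAG. A442M libraries both exceeded both WT libraries, and so did the libraries of WT-FLAG over WT and of A442M-FLAG over A442M, while the other pairs overlapped. The means were 69.5 ± 9.19 for WT, 95 ± 14.1 for A442M, 83.5 ± 16.3 for G444E, 120.5 ± 34.6 for WT-FLAG, 141 ± 35.4 for A442M-FLAG and 106.5 ± 27.6 for G444E-FLAG (SD, n = 2 each). List length moved with these numbers. A442M had 1.37 times as many member regions as WT and 1.40 times as many peaks, A442M-FLAG had 1.17 times as many regions as WT-FLAG and 1.18 times as many peaks, and G444E-FLAG had 0.884 and 0.878 times those of WT-FLAG. G444E had 1.20 times as many regions as WT at 1.07 times the peaks. With the tag, member regions were 1.73 times those of untagged WT at 1.48 times the peaks, 1.48 times those of A442M at 1.25 times the peaks, and 1.28 times those of G444E at 1.21 times the peaks. In the first 3 of these pairs the ratio of member regions was close to that of the lists, and in G444E over WT and the 3 tag pairs it exceeded it.

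Every list was therefore also reduced to its 25248 highest-scoring peaks, the number in the shortest list. The members then had 65 and 63 regions in WT, 65 and 60 in A442M, 71 and 67 in G444E, 74 and 68 in WT-FLAG, 78 and 69 in A442M-FLAG and 78 and 68 in G444E-FLAG. At equal length the 2 A442M libraries no longer lay above WT, whereas both G444E libraries did, and WT-FLAG still lay above WT and A442M-FLAG above A442M. The FLAG library stayed above the untagged library of the same number in all 6 pairs, and the ranges of tagged and untagged libraries overlapped.

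**Figure D2:**
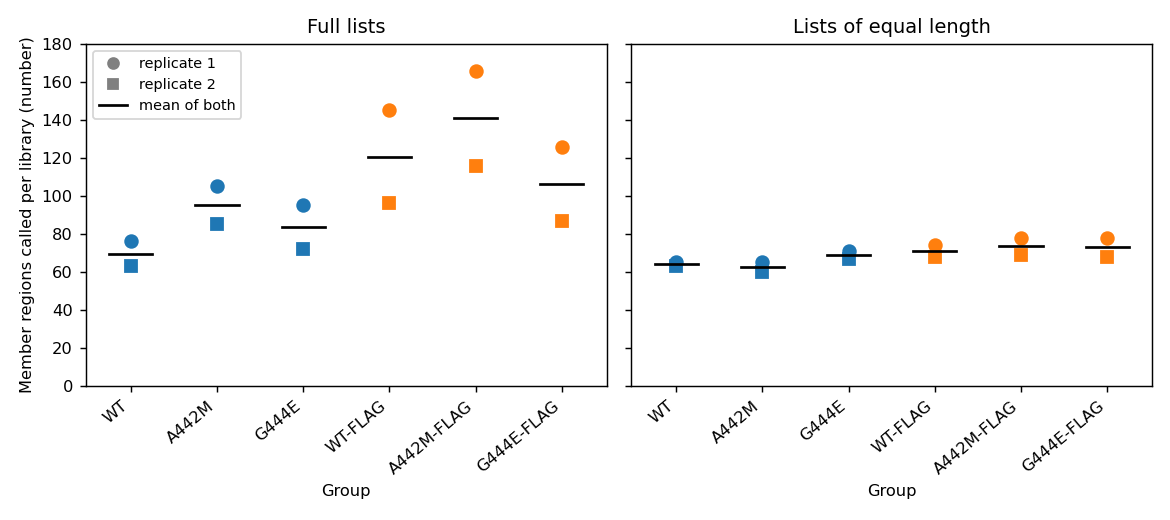
The number of regions called within 50 kb of the 33 genes is plotted for each library by group, from the full lists (left) and from lists of equal length (right). Circles are replicate 1, squares replicate 2 and bars the mean of both, with untagged groups in blue and FLAG groups in orange. The full lists ran from 63 to 166 regions and the equal lists from 60 to 78.

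Counts of regions per gene were compared between tag states with an exact permutation test within genotype, two-sided, and adjusted by Benjamini-Hochberg over the 17718 genes with a region. In WT and in A442M the tag states also differ in off-chromosome peaks, and the contributions cannot be told apart there. No member passed at an adjusted p under 0.05, in a test in which 0% of all genes passed. Of the 30 members tested, 25 had a higher mean with FLAG and 5 a lower one, a share of 83.3% against 76.7% of all genes, with a median difference of 0.83 regions against 0.67. Without adjustment 7 members (23.3%) were higher with FLAG at p under 0.05, against 19.1% of all genes, and 0 were lower, against 0.593%. The 7 were NPC1, ATG7, UVRAG, ATP6V1A, NEU1, CTSC and BECN1, and the number was 4 with the replicate block (labels exchanged only between same-number libraries) and 3 at equal list length. How many of all genes passed without adjustment in these runs was not counted. NPC1 had 9.50 regions with FLAG and 4.83 without, a difference of 4.67 (SD within groups 1.87, higher in 6 of 6 same-number pairs, p = 0.00926 and adjusted p = 0.174 by this exact test). ATG7 had 17.7 and 11.3, a difference of 6.33 (SD within groups 3.51, 6 of 6 pairs, p = 0.00926 and adjusted p = 0.174 by this exact test). UVRAG had 9.33 and 4.17, and NEU1, the lysosomal sialidase, had 4.33 and 2.67, each higher in 6 of 6 pairs (p = 0.0185 by this exact test). At equal list length the difference was 2.17 for NPC1, 3.00 for ATG7, 1.17 for UVRAG and BECN1, 0.50 for ATP6V1A and 0.33 for CTSC and NEU1. A call after adjustment needed 3282 genes at the smallest p of the test, and 884 were there.

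The mutants were not set apart from WT in regions per gene. Genotypes were permuted separately among tagged and untagged libraries, and no member passed at an adjusted p under 0.05 (0% of all genes), and 1 of 30 was higher without adjustment, CTSC, an aminopeptidase that activates serine proteases, against 2.06% of all genes, and 0 were lower (0.22%). CTSC had 1 and 2 regions in WT, 3 in each A442M and G444E library, 3 and 3 in WT-FLAG, 5 and 4 in A442M-FLAG and 4 and 3 in G444E-FLAG, a difference of 1.25 between mutants and WT (exact permutation test, p = 0.0133, adjusted p = 1). The number was 0 with a window of 10 kb, with a score of at least 10 or at equal list length, and 2 with the replicate block or without WT-FLAG replicate 1 or G444E-FLAG replicate 2. A442M against WT and G444E gave no adjusted call either (0% of all genes). Without adjustment 3 members were higher in A442M (10%, against 12.6% of all genes), namely CTSS, UVRAG and ATP6V1A, and 0 were lower (0.0677%). The number was 0 at equal list length and 1 without A442M-FLAG replicate 1, without G444E-FLAG replicate 1 or without G444E-FLAG replicate 2. For neither genotype contrast was the number of all genes passing without adjustment counted in such runs. Leaving out each library in turn gave differences of 1.5 to 5.17 regions for UVRAG and of 0.958 to 2.63 for ATP6V1A, each lowest without A442M-FLAG replicate 1. At equal list length the ATP6V1A difference of 1.88 turned to -0.88.

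The calls of each region were compared by Fisher's exact test, two-sided. No member region passed after adjustment for the tag, for the mutants against WT or for A442M against the others (0% of all tested regions in each). Without adjustment 4 of the 39 testable member regions were called more often with FLAG (10.3%, against 11.3% of all testable regions), each in 5 of 6 FLAG and 0 of 6 untagged libraries (Fisher's exact test, p = 0.0152, adjusted p = 0.117), and 0 were called less often (1.63% of all). With the replicate block the number was 0. None of these 4 could have reached p under 0.05 in that test, so the 0 was fixed beforehand. The number was 9 without WT-FLAG replicate 2 or G444E-FLAG replicate 2, 10 without G444E-FLAG replicate 1 and 2 at equal list length. How many of all regions passed without adjustment in these runs was not counted, so the shifts cannot be read as particular to the members. The 4 lay in NPC1 (chr18:23540772-23541406), in ATP6V1A (chr3:113783515-113783917), near ATG7 inside HRH1 (chr3:11255297-11256166) and near CTSH inside RASGRF1 (chr15:78979627-78980087). The NPC1 region was absent from G444E-FLAG replicate 1, the ATG7 region from G444E-FLAG replicate 2, and the other 2 from WT-FLAG replicate 2. For A442M 3 of 81 regions had p under 0.05 without adjustment (3.7%, against 2.87% of all), near CTSS, CTSD and CTSA, each in 3 of 4 A442M and 0 of 8 other libraries (Fisher's exact test, p = 0.0182, adjusted p = 0.622), and 0 were lower (0.0525% of all). That number was 0 without A442M-FLAG replicate 1 or with a score of at least 10, 1 without A442M-FLAG replicate 2 and 5 without WT-FLAG replicate 1. Here too the matching number over all regions was not counted. Mutants against WT gave 0 of 81 (0.206% of all regions were higher at that level and 0.105% lower).

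Pairs of groups hold 2 libraries against 2 and were described without a test, as one-sided regions, which both libraries of a group called and neither library of the other did. Without the tag, 11 of 235 member regions were one-sided for A442M over WT (4.68%, against 7.02% of all regions) and 1 for WT over A442M (0.426%, against 0.689%). G444E over WT gave 10 (4.26%, against 5.09%) and WT over G444E 5 (2.13%, against 3.66%). These shares were below those of all regions. With the tag, A442M-FLAG over WT-FLAG gave 13 (5.53%, against 5.97%) and the reverse 4 (1.7%, against 1.58%), while G444E-FLAG over WT-FLAG gave 1 (0.426%, against 0.465%) and the reverse 5 (2.13%, against 2.19%). Between tag states, WT-FLAG over WT gave 23 (9.79%, against 12.3%) and the reverse 3 (1.28%, against 3.17%). A442M-FLAG over A442M gave 29 (12.3%, against 10.8%) and the reverse 3 (1.28%, against 4.06%). G444E-FLAG over G444E gave 2 (0.851%, against 2.19%) and the reverse 0 (0%, against 0.429%). All these shares lay within 3 percentage points of those of all regions, a margin wider than most of the shares themselves. The relative gaps were larger in places, such as A442M over A442M-FLAG, and several shares rest on 3 regions or fewer. At equal list length A442M over WT and WT over A442M were both 8 of 153 regions (5.23%, against 4.70% and 2.74% of all regions).

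**Figure D3:**
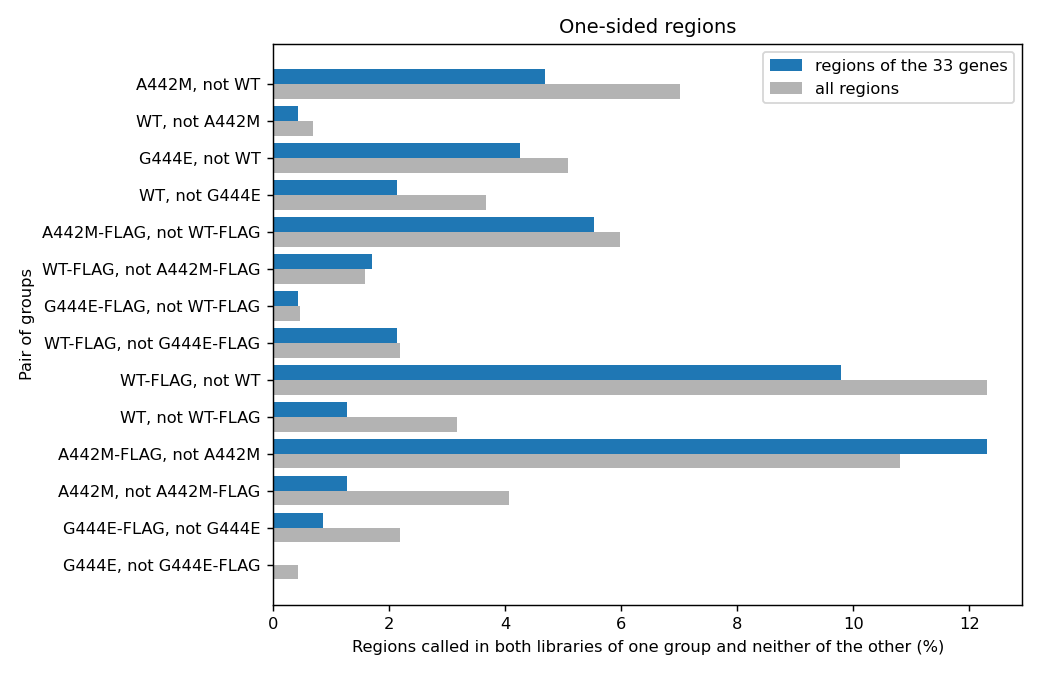
Bars give the percent of regions that both libraries of the first group called and neither of the second, for the 235 regions of the 33 genes (blue) and for all 78999 regions (grey). The blue bars run from 0% for G444E over G444E-FLAG to 12.3% for A442M-FLAG over A442M, and most are shorter than the grey ones.

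A set of 5 regions was called in all 10 libraries other than untagged WT and in neither untagged WT library (2.13%, against 2.61% of all regions). They lay inside LAMP2 (chrX:120463383-120464726), 2193 bp from ATG5 (chr6:106181494-106182283), 9100 bp from PSAP (chr10:71860351-71861793), near CTSA inside PCIF1 (chr20:45937794-45938118), and near ATP6V0D1, a membrane-sector subunit of the proton pump, at 3109 bp from ZDHHC1 (chr16:67419586-67420141). ATP6V0D1 held the highest-ranking one-sided region of A442M over WT, and LAMP2 that of G444E over WT and of WT-FLAG over WT. The LAMP2 region stood at within-list percentiles of 70.2 and 70.9 in A442M, 86.0 and 88.1 in G444E, 85.2 and 91.6 in WT-FLAG, 95.3 and 94.3 in A442M-FLAG and 78.6 and 70.8 in G444E-FLAG (percent of the list's peaks with a score no higher). It was thus in the upper part of every list that held it. The CTSA region lay between 64.2 and 87.7 and the ATP6V0D1 region between 54.4 and 93.2. The untagged A442M lists resemble untagged WT in their peaks off the main chromosomes. They hold all 5 by the rule that chose these regions, so nothing further follows from it. The A442M lists also held 1.40 times as many peaks as the untagged WT lists.

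Other one-sided regions were called in fewer groups. The highest-ranking of A442M-FLAG over A442M was the NPC1 region given above, at percentiles of 85.8 and 86.0. The highest of WT over G444E and over WT-FLAG lay inside CTSH (chr15:78931004-78931256) at a lower percentile of 73.9, and was called in 4 libraries. The region of WT over A442M (chr15:78902435-78902970, near CTSH and 4296 bp from MORF4L1) ranked at 1.15. For A442M over A442M-FLAG it lay near WIPI1 inside ARSG (chr17:68378731-68379028, lower percentile 61.1), for A442M-FLAG over WT-FLAG inside UVRAG (chr11:76102638-76103095, 47.5) and for WT-FLAG over A442M-FLAG near WIPI1 inside PRKAR1A (chr17:68466283-68466825, 45.9). G444E-FLAG over WT-FLAG had 1 region in UVRAG (chr11:75850918-75851538, 8.30), WT-FLAG over G444E-FLAG was led by a region near BECN1 inside VPS25 (chr17:42777076-42777403, 55.7), and G444E-FLAG over G444E by the ATP6V1A region given above (38.8). Most of these ranked in the middle or lower part of their lists.

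**Figure D4:**
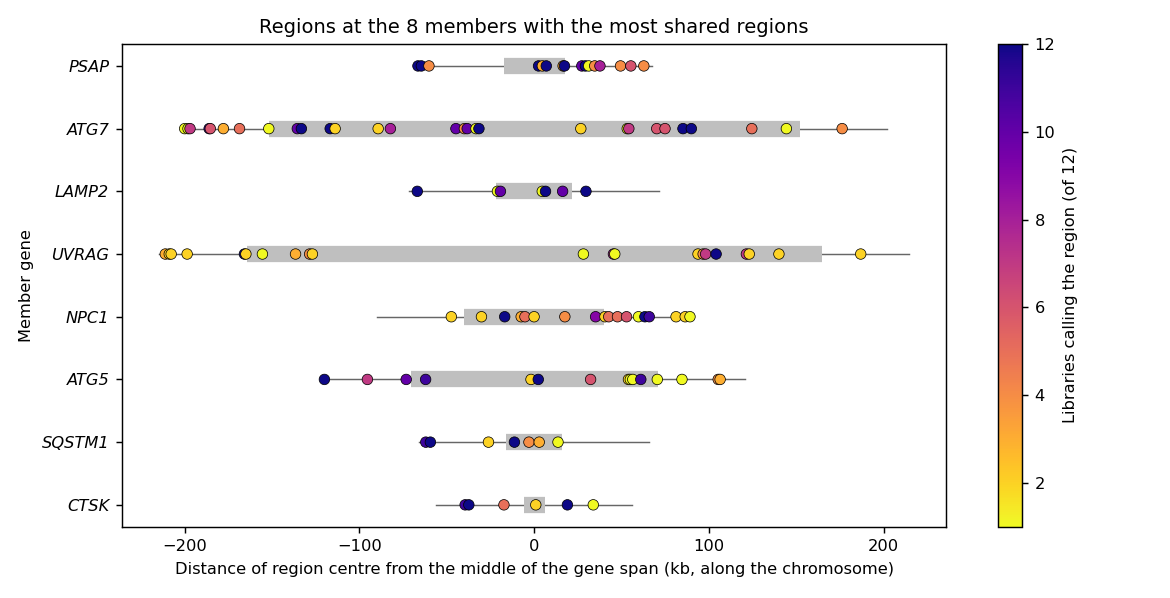
For the 8 members with the most shared regions, each dot is a region, placed by the distance of its centre in kb from the middle of the gene span (grey bar), with the line marking the 50 kb window on either side. Colour gives the number of the 12 libraries that called it, and the darkest dots are the shared regions, of which PSAP has 6 and ATG7 5.

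The 31 shared regions were next ranked by score within each list, among the 10933 regions called in all 12 libraries, so that every list ranks the same regions. The rank is a percentile, and the comparison is a description without a test. The region upstream of CTSD, the main aspartic protease of lysosomes, differed most between libraries (chr11:1795961-1797506, 32034 bp from the gene span, with CTSD the nearest gene). It ranked at 49.1 and 11.3 in WT, 98.4 and 98.0 in A442M, 99.2 and 98.3 in G444E, 99.9 and 99.7 in WT-FLAG, 99.96 and 99.91 in A442M-FLAG and 99.9 and 99.8 in G444E-FLAG. The untagged WT libraries stood apart from the other 10, untagged A442M among these. Peaks covered 390 and 311 bp of this region in WT and 964 to 1531 bp in the other libraries, where the median over all shared regions was 412 and 433 bp in WT and 502 to 688 bp in the others. Both untagged WT libraries ranked below the other 10 at 2 of the 31 regions (6.45%, against 12.3% of all shared regions) and above them at 4 (12.9%, against 13.2%), so such separation was not more frequent at the members. The 2 were CTSD and a region inside UVRAG, and the 4 lay at CTSS, NEU1 and LAMP2, the last with 2.

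The tag states did not overlap in rank at 5 of the 31 regions. At 2 the 6 untagged libraries ranked below the 6 FLAG libraries (6.45%, against 2.59% of all shared regions) and at 3 above them (9.68%, against 2.96%). The CTSD region was one of the lower ones, with at most 99.2 untagged and at least 99.7 with FLAG. The other lay inside PSAP (chr10:71835972-71836673), with ranks of 31.5 and 33.2 in WT, 23.6 and 48.0 in A442M, 70.8 and 74.4 in G444E, 76.6 and 83.5 in WT-FLAG, 87.4 and 86.3 in A442M-FLAG and 83.2 and 89.4 in G444E-FLAG. Untagged G444E lay nearest to the FLAG libraries. The opposite order was seen inside CTSS (chr1:150764325-150765373), with 75.0 and 66.8 in WT, 57.2 and 49.5 in A442M, 45.0 and 35.4 in G444E, 33.8 and 20.6 in WT-FLAG, 7.75 and 10.5 in A442M-FLAG and 15.9 and 19.8 in G444E-FLAG. The untagged groups did not overlap, in the order WT, A442M, G444E, and every FLAG library lay below them. A region 7498 bp from LAMP2 (chrX:120476847-120477991) ranked at 77.8 to 93.9 without the tag and at 36.1 to 74.8 with it. A region near NPC1 inside ANKRD29 (chr18:23609489-23610036) ranked at 79.2 to 93.2 without the tag and at 58.2 to 75.3 with it. At each of the 5 regions the tag states were less than 4 percentile points apart at their nearest libraries. WT and A442M lie across the divide in off-chromosome peaks from their FLAG groups, whereas G444E and G444E-FLAG do not: their ranks were 45.0 and 35.4 against 15.9 and 19.8 at CTSS, and 70.8 and 74.4 against 83.2 and 89.4 at PSAP.

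The region with the steadiest high rank lay near MCOLN1, the lysosomal calcium channel TRPML1, inside the neighbouring gene PEX11G (chr19:7491896-7492844, 29780 bp from MCOLN1). It ranked at 93.1 to 98.1 in all 12 lists, and its lowest percentile over the full lists was 97.7. The region shared near NEU1 inside C2 (chr6:31910270-31911022) ranked at 95.6 and 92.5 in WT and at 48.1 to 88.7 in the others. A region 24741 bp from PRDM1 (chr6:106134679-106135468), assigned to ATG5 by distance, ranked lowest, at 0.03 to 15.4. Over the 31 regions the median range between the highest and the lowest rank was 39.6, against 41.4 for all shared regions.

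**Figure D5:**
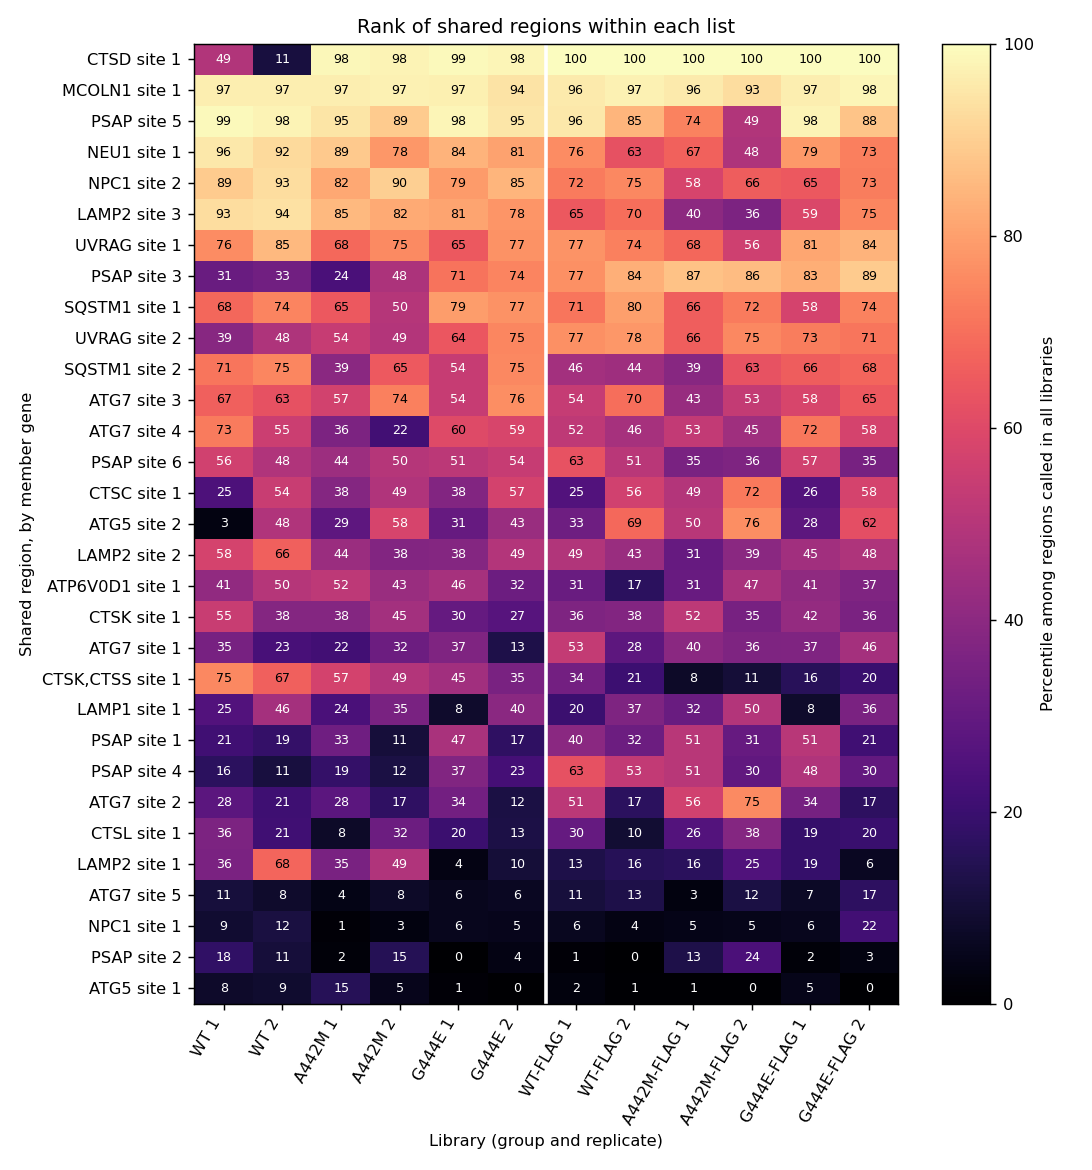
Rows are the 31 regions near members that all 12 libraries called, numbered along the chromosome for each gene, and columns are the libraries, with untagged libraries left of the white line. Cells give the percentile rank of the region's score among the 10933 regions called in all libraries. The CTSD row is at 49.1 and 11.3 in WT against at least 98.0 elsewhere, and the MCOLN1 row stays at 93.1 to 98.1.

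Of the members with a promoter window most had no peak there, but the share with a peak exceeded that of all genes. RefSeq promoter windows on GRCh38.p14, from 250 bases before to 50 after a start, were available for 24 of the 33 members (28 windows), and 9 of these members (37.5%) had a window overlapped by a peak in 1 or more libraries, against 17.0% of all genes with a window. A window at the second annotated start of ATG5, inside the gene, was called in 11 libraries, all but A442M-FLAG replicate 2. The NEU1 window was called in 8, namely A442M replicate 1, both G444E, both WT-FLAG, both A442M-FLAG and G444E-FLAG replicate 1, and in neither WT library. However, the region that overlaps this window (chr6:31862973-31864086) was called in 11 libraries, WT replicate 1 among them. In those of the 11 outside the 8, the peak lay within 1 kb of the window without overlapping it. CTSH and MCOLN1 windows were called in 4 libraries each, replicate 1 of G444E, WT-FLAG, A442M-FLAG and G444E-FLAG. CTSD was called in WT-FLAG replicate 1 and A442M-FLAG replicate 1, CTSA in A442M-FLAG replicate 1 and G444E-FLAG replicate 2, ATG7 and NPC1 in G444E-FLAG replicate 1, and WIPI1 in WT-FLAG replicate 1. With the exception of ATG5, no member window was itself overlapped by a peak of an untagged WT library. With a score of at least 10, 4 of the 9 remained, and the share of all genes at that score is not given here.

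The windows were searched on both strands for the GATA core AGATAA, the E-box CACGTG and the longer lysosomal element TCACGTGA, which contains the E-box. AGATAA was in 1 of 28 member windows (3.57%, against 7.91% of all 22198 windows), CACGTG in 9 (32.1%, against 8.34%) and TCACGTGA in 5 (17.9%, against 1.27%), those of LAMP1, ATP6V0D1, GAA, MCOLN1 and CTSA. Of the 9 windows with CACGTG 4 were called in a library, and of the 5 with TCACGTGA 2. The called share of all windows with these motifs is not given here. The 250 bases before the start are shown 5′ to 3′ in the direction of the gene for ATG5 and NEU1, whose windows were called most often, for MCOLN1 and CTSA, which were called and hold the lysosomal element, and for CTSH, where the GATA core was found, with each match in capitals. LAMP1 is shown as a window rich in the E-box that no library called.
ATG5, chr6:106316267-106316516, minus strand: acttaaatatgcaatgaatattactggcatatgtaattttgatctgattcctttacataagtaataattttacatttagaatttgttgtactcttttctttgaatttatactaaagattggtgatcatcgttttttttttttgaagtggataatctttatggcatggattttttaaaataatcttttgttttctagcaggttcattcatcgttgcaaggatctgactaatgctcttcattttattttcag
NEU1, chr6:31862822-31863071, minus strand: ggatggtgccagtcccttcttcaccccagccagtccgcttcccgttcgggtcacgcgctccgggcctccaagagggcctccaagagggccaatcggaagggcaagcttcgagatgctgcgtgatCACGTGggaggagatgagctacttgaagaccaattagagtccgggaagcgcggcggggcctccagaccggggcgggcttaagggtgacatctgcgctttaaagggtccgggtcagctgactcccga
MCOLN1, chr19:7522374-7522623, plus strand: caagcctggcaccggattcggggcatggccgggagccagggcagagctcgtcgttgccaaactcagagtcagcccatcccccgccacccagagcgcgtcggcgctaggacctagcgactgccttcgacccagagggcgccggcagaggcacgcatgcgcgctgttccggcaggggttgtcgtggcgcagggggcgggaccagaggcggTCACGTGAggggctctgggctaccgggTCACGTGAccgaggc
CTSA, chr20:45891085-45891334, plus strand: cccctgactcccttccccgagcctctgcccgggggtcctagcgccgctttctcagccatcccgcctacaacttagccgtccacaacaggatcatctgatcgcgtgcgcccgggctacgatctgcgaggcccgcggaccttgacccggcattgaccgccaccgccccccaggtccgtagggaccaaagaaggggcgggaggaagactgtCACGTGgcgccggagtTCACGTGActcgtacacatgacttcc
CTSH, chr15:78945047-78945296, minus strand: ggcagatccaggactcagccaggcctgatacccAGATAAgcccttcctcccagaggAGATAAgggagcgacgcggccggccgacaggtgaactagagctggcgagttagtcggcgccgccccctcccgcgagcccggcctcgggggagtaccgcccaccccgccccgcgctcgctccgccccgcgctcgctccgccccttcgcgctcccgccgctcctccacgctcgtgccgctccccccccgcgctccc
LAMP1, chr13:113296989-113297238, plus strand: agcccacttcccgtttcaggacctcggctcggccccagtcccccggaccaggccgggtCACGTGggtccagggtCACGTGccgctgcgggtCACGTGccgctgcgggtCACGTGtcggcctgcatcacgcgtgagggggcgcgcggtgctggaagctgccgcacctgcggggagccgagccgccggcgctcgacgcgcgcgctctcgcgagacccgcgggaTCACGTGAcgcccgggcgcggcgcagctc

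The ATG5 stretch, whose window was called in 11 libraries, held none of these motifs. Positions count from the start site, with negative values before it, and give the first base of a match. NEU1 has 1 E-box at -126. MCOLN1 has lysosomal elements at -42 and -15, and CTSA has one at -26 and an E-box at -42. CTSH has GATA cores at -217 and -194. LAMP1 has 4 E-boxes between -192 and -142 and a lysosomal element at -29, and a further one at -2 runs past the stretch shown. A match is a description of the letters and does not mark a bound site.

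A wider list of 110 lysosome and autophagy genes that shares no member with the 33 was described in the same way. Its median gene length was 30.5 kb, against 24.1 kb for all genes, so its windows tend to be longer. Of these 110 genes, 106 had a region (96.4%, against 88.4% of all genes). A region called in all 12 libraries lay near 64 (58.2%, against 48.5% of the members and 40.6% of all genes). They held 4.75 regions per 100 kb, against 3.52 for all genes. No gene of this list passed at an adjusted p under 0.05 in any of the 3 contrasts of regions per gene. Without adjustment 28 of 106 were higher with FLAG (26.4%, against 19.1% of all genes) and 0 lower (0.593% of all genes). In the mutants 0 were higher (2.06% of all genes), and in A442M 12 were higher (11.3%, against 12.6%). Among the genes with the most shared regions were ATG14, an adaptor of the Beclin 1 complex, with 9 of 21, LIPA, the lysosomal acid lipase, with 8 of 31, ASAH1, the acid ceramidase, with 4 of 11, and LAPTM4B, a lysosomal transmembrane protein, with 4 of 15. LIPA called 9 and 9 regions in WT, 15 and 11 in A442M, 16 and 13 in G444E, 19 and 18 in WT-FLAG, 18 and 21 in A442M-FLAG and 15 and 16 in G444E-FLAG. ATG14 called 10 to 19 per library. TMEM192, OSTM1, CTSG and NRBF2 had no region.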

How the data were processed

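GATA3 ChIP-seq peak lists of 12 libraries were analysed. The authors deposited 1 list per library, with a position and a score for each peak. The score is at least 5, its scale is not named in the files, and it was used only to rank and filter peaks within a list. Per the submitters' processing notes, MACS2 2.1.4, FastQC and build hg38 were used. The aligner, control, filters and depth were not given in the sources used here. ThruPLEX libraries were made, per the labels' protocols.

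The 433307 peaks were merged where they overlapped by 1 bp or more, and a region counted as called by each library with a peak in it. Gene spans came from RefSeq (GRCh38.p14), with protein-coding genes on the main chromosomes. Tests were Fisher's exact test on calls of each region, adjusted over the regions with enough calls to reach p = 0.05, and an exact permutation test on regions per gene (216 arrangements for the tag, 225 for genotype). All were adjusted by Benjamini-Hochberg over the whole series. Exact permutation of 2 against 2 libraries has 6 arrangements and cannot reach the threshold, so pairs were only described. On simulated data for the tag, each changed region was called in every FLAG library and in no untagged one. Each changed gene gained 6 regions in every FLAG library. Calling rates were otherwise equal over libraries, unlike in these lists, and weaker changes were not simulated. The region test called 0% of 200 changed regions of 78999 and 100% of 2000. The test per gene called 0% of 200 or 2000 changed genes of 19749 and 100% of 6000. At 6000 it also called 5.51% of the unchanged genes, some of which held changed regions. A change confined to few regions or genes could therefore not have been called by either test.

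Same-number libraries deviated together: over 15 pairs of groups the correlation of replicate differences was 0.113 to 0.290. The main tests did not pair libraries by replicate number. Such pairing, on the evidence of the data, entered only in the replicate block and in the comparisons of same-number libraries. Alternatives were a 10 kb window, a score of at least 10, equal lists, calls only where peaks cover 50% or more of a region, peaks within 1 kb of a promoter window, the replicate block, and each library left out. The ranking of shared regions and the left-out groups were added after the data had been seen. Members, lists and tests were chosen with earlier results of these data known. Named in full were the 8 members with the most shared regions, those with a called promoter window or without a shared region, the leading one-sided region of each pair of groups, and the 5 genes of the wider list with the most shared regions, of which 1 is not reported here. CTSC, ATP6V1A, BECN1 and the regions singled out by rank were named after their values were seen. Exons were not assigned, because the annotation used gives gene spans only. Python 3.11.15, numpy 2.4.6, pandas 2.3.3, scipy 1.17.1 and matplotlib 3.10.9 were used.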

Additional observations from a re-analysis of the deposited data

Results flagged for a closer look

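WIPI1, a phosphoinositide-binding protein of early autophagosomes, had tag differences of opposite sign in WT and in A442M. It had 1 and 1 regions in WT and 3 and 2 in WT-FLAG, a difference of means of 1.5, and 3 and 2 in A442M against 1 and 1 in A442M-FLAG, a difference of -1.5. Both libraries moved 1 way in one genotype and both the other way in the other, and the effects differed by 3. The same 4 groups give the second form of this result: A442M lay above WT by 1.5 without the tag and below WT-FLAG by the same amount with it, again a difference of 3. G444E had 3 and 1 regions and G444E-FLAG 2 and 1. At equal list length WIPI1 had 1 and 1 regions in WT, 2 and 2 in WT-FLAG, 3 and 2 in A442M and 1 and 0 in A442M-FLAG. The difference between the effects was not tested, and how many of all genes show such a reversal was not counted. The SD within groups was 0.764 regions for WIPI1.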

How the results depend on the processing

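No member region and no member gene passed at an adjusted p under 0.05 under any alternative run, including the replicate block, which gave 0 calls in all 6 tests, and each left-out library (0 to 0 calls). The replicate block and the runs without 1 library allow fewer arrangements than the main tests. In the main tag test per gene a call needed 3282 genes at the smallest p, and 884 were there. The 0 calls after adjustment in the alternative runs are therefore no sign of stability. The ATP6V1A difference for A442M reversed to -0.875 at equal lists. At equal lists one-sided shares were 5.23% for WT over A442M, WT over G444E and A442M over A442M-FLAG (2.74%, 5.72% and 6.91% of all regions), 6.54% for WT over WT-FLAG (7.47%), 7.84% for A442M-FLAG over A442M (7.80%) and 0% for G444E-FLAG over WT-FLAG (0.887%). WT over A442M was 0% in a 10 kb window, with a score of at least 10 and with calls covering at least 50% of a region (0.689%, 0.630% and 0.673% of all regions). G444E-FLAG over WT-FLAG was 0% with a score of at least 10, and A442M over A442M-FLAG 0% in the 10 kb window.

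The shares in this paragraph have none of all regions beside them, so no shift can be read as particular to the members. Leaving out 1 library, so that fewer libraries must agree, gave 7.69% to 14.5% for A442M over WT and 0.858% to 3.85% for the reverse. It gave 6.01% to 13.6% for G444E over WT and 3.40% to 6.41% for the reverse, and 8.12% to 17.9% for A442M-FLAG over WT-FLAG and 3.49% to 9.83% for the reverse. It gave 0.855% to 8.23% for G444E-FLAG over WT-FLAG and 4.33% to 14.1% for the reverse, and 12.8% to 31.6% for WT-FLAG over WT and 1.71% to 4.27% for the reverse. It gave 15.0% to 30.6% for A442M-FLAG over A442M and 2.62% to 5.48% for the reverse, and 2.98% to 14.7% for G444E-FLAG over G444E and 0.866% to 3.40% for the reverse. Shared regions were 13.2% to 15.0% of member regions and 16 to 17 members had one. They were 4.26% where calls cover at least 50% of a region and 19.9% without untagged WT and A442M. Members with a shared region numbered 10 in the 10 kb window and 9 with 50% coverage.

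Untagged libraries ranked below FLAG ones at 1 shared region in the 10 kb window and at 0 with 50% coverage, and above them at 0 with 50% coverage. Without 1 library these numbers were 2 to 3 and 3 to 4. Members with a called promoter window numbered 4 with a score of at least 10. Apart from the window width and the number of libraries, the cause of these shifts was not tested. Widening the window by 10 kb beyond 50 kb would have added 24 regions, 3 of them shared. Depth is unknown, so an unlisted peak is not an absent one.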
